A study of Mus musculus with 24 samples.

Results

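Messenger RNA levels of 10 genes of the transforming growth factor beta (TGF-beta) pathway were followed in sorted mouse bone marrow cells. The genes were fixed by name: the ligand Tgfb1, the receptors Tgfbr1, Tgfbr2 and Tgfbr3, the SMAD proteins Smad2, Smad3, Smad4 and Smad7, and the co-repressors Skil and Ski. All 10 were found among the 26267 genes of the table. The sorted cells were LSK cells, negative for lineage markers and positive for Sca-1 and Kit, a fraction with the blood stem cells and early progenitors. The mice lacked Fancg (FancgKO), lacked Fancg and carried an Mdm4 transgene (FancgKO_Mdm4Tg), carried the transgene alone (Mdm4Tg) or were wild type (WT). In mice given poly(I:C), a double-stranded RNA mimic that sets off an interferon response, there were 3 FancgKO, 2 FancgKO_Mdm4Tg, 2 Mdm4Tg and 3 WT libraries. With PBS, the vehicle, there were 4 FancgKO, 3 FancgKO_Mdm4Tg, 3 Mdm4Tg and 4 WT libraries. The labels give neither the dose and timing of poly(I:C), nor the age or strain of the mice, nor the promoter of the transgene. They do not say whether libraries came from separate animals, so the p-values cover no more than the spread between libraries, which may be technical.

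TGF-beta ligand binds the type II receptor, encoded by Tgfbr2, which then activates the type I receptor, encoded by Tgfbr1. The active receptor phosphorylates SMAD2 and SMAD3, which join SMAD4 and regulate genes in the nucleus. SMAD7 and the co-repressors SKI and SnoN (encoded by Skil) restrain the pathway, and Smad7 and Skil are themselves known targets of it. In blood formation TGF-beta signalling is known for holding stem cells out of the cell cycle, and Fanconi anaemia genes such as Fancg act in the repair of DNA crosslinks.

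Promoters are shown for the ligand and for the type II receptor, because they begin the pathway and their differences with poly(I:C), given below, have opposite signs. Each line holds the 250 bases before the RefSeq start on GRCm38.p6. Capitals mark CAGAC, the letters of a SMAD-binding element, and GGGCGG, a GC box, on either strand. A match of one motif can share a base with a match of the other, which did not occur in these windows. The Tgfb1 window is chr7:25686752-25687001 on the plus strand and the Tgfbr2 window is chr9:116175364-116175613 on the minus strand, both printed in the direction of transcription.
Tgfb1: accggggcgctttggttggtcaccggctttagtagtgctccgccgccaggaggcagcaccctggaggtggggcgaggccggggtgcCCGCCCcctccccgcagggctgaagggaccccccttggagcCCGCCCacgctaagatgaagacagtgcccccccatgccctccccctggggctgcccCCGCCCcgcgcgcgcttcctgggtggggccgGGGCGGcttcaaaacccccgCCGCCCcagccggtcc
Tgfbr2: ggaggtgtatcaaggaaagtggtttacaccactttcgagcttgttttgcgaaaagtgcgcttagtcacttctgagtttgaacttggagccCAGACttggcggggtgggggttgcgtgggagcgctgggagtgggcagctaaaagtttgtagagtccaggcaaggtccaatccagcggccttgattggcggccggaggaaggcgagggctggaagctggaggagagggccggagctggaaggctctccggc
The Tgfb1 window held 5 GC boxes and 0 matches of CAGAC, with 75.2% G and C. The Tgfbr2 window held 0 GC boxes and 1 match of CAGAC, with 58.4% G and C. Of 32851 RefSeq promoter windows of this length, 32.7% held GGGCGG and 42.2% held CAGAC, and the median G and C content was 52.4%. A match is a description of the letters and not of binding. Of the 10 genes, 5 had a promoter in the table used.

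Libraries held 807686 to 8229715 reads (median 2583130). Depth went in part with treatment, at 1697596 to 8229715 reads with poly(I:C) and 807686 to 4801746 with PBS. Reads thinned to equal depth are among the alternatives below. Values are normalized counts, the reads of a gene scaled to be comparable between libraries, and folds are on the log2(normalized count + 1) scale. Mdm4 was at 5023 to 7105 in the 10 transgenic libraries, against 750.9 to 1293 in the other 14, so it separated them as labelled. Fancg was at 26.1 to 71.4 in libraries labelled FancgKO or FancgKO_Mdm4Tg and 41.3 to 78.4 in the rest. The deleted part of Fancg is not given, so these values do not check the knockout. Kit lay at 1483 to 2075 with poly(I:C) and 1710 to 2414 with PBS. The transcript of Sca-1, Ly6a, was low in every library, at 14.2 to 41.0 with poly(I:C) and 11.7 to 45.9 with PBS. Library titles end in _d (12 libraries, replicates 6 and 7) or _d_2 (12 libraries, replicates 2, 4 and 8), and the labels do not say what this means. Between libraries of the same group, 45.3% of all tested genes differed with the title ending, so results are given with it too. Xist, the transcript of the silenced X chromosome in female cells, was at 362.5 or more in 6 libraries and at 24.78 or less in 18. The 6 were 2 of 3 FancgKO and 2 of 3 WT libraries with poly(I:C) and 2 of 4 FancgKO libraries with PBS, while all 4 WT libraries with PBS were low. All 6 had titles ending in _d, and the low libraries of the same groups had _d_2. Within those groups the Xist class and the title ending therefore cannot be told apart. Each of the other groups was low in Xist throughout and held both endings, so there the ending varied without the Xist class. CT010467.1, annotated as ribosomal RNA, was at 4555 to 22432 with poly(I:C) (median 8003) and 7978 to 157689 with PBS (median 28839). Of 12628 genes tested, 10 were these genes.

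Per kilobase of annotated exon, Tgfb1 and Smad4 had the highest levels of the 10 genes. Tgfb1 averaged 95.6 ± 26.48 normalized counts per kb (SD over all 24 libraries). Smad4, the shared partner of the receptor-activated SMADs, followed at 78.2 ± 12.41. The order of these 2 went with the title ending. Tgfb1 exceeded Smad4 in all 12 libraries with _d, at 118.6 ± 14.1 against 70.0 ± 9.4 normalized counts per kb, but in 4 of 12 with _d_2, at 72.7 ± 10.9 against 86.4 ± 9.3 (SD). Smad4 exceeded the next gene, Tgfbr1 at 41.0 ± 7.13, in all 24 libraries. On this scale the signalling chain was uneven in message level, with the type I receptor above Tgfbr2, the type II receptor, at 21.2 ± 4.18. Of the SMADs that the receptor activates, Smad3 stood at 31.3 ± 4.42 and Smad2 at 17.5 ± 2.14. Tgfbr3 stood at 26.9 ± 8.87, Ski at 25.5 ± 3.47, Smad7 at 19.2 ± 5.43 and Skil at 14.4 ± 3.35. Among these lower genes the ranges of neighbours in the order overlapped. Tgfbr3 exceeded Ski in 13 of 24 libraries and Smad7 exceeded Smad2 in 14. The order depends on division by length, which assumes reads from the whole transcript, and how reads were counted is not given. Before division the median count was 81.4 for Smad7 and 152.8 for Smad2. The fewest reads behind any value were 23 for Smad7, in the gene with the lowest normalized counts, and the most were 1352 for Tgfb1. Relative spread was widest for Tgfbr3, Smad7 and Tgfb1 and narrowest for Smad2 and Ski.

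**Figure D1:**
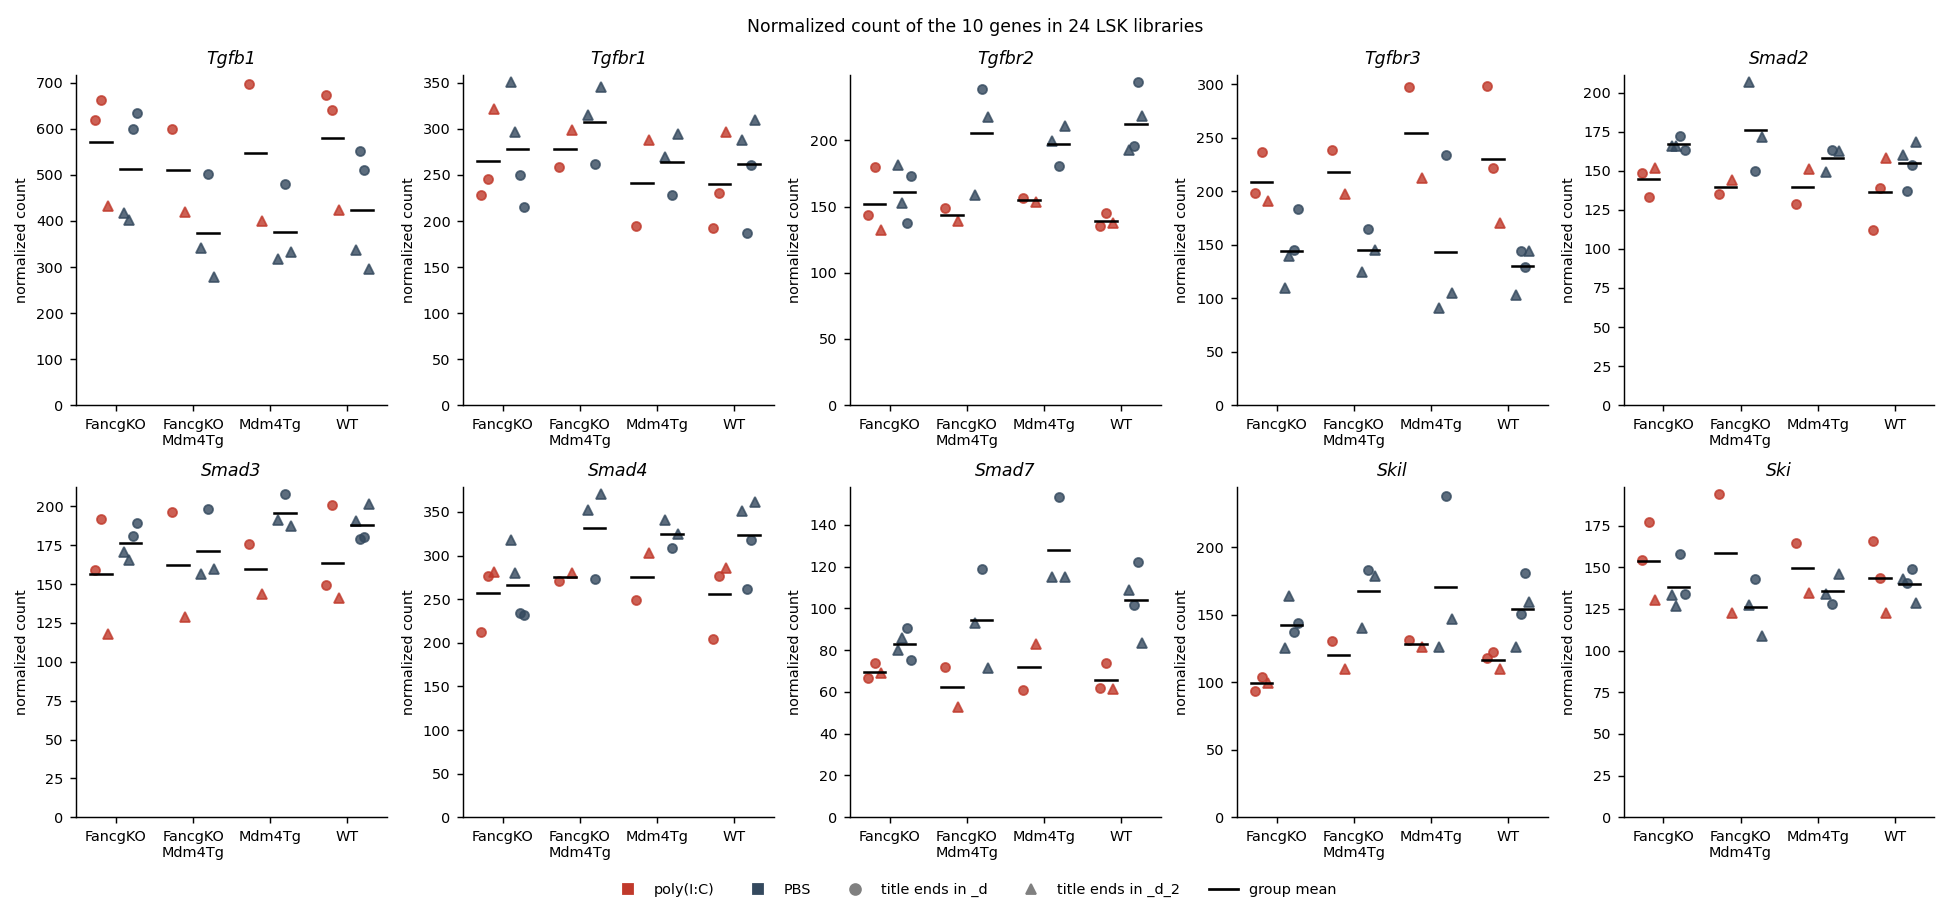
Normalized count (vertical axis, from 0) of each of the 10 genes in every library, by genotype, with poly(I:C) in red left of PBS in dark blue; circles are titles ending in _d, triangles _d_2, and bars are group means. Skil and Smad7 lie lower with poly(I:C) in each genotype, Tgfbr3 lies higher, and the circles of Tgfb1 lie above its triangles.

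The first question was whether poly(I:C) moved these genes, with the 4 genotypes weighted equally (10 libraries against 14). The inhibitory SMAD, the co-repressor gene Skil, the type II receptor and Smad2 fell, and the co-receptor Tgfbr3 rose. That made 5 of 10 genes past an adjusted p of 0.05 in limma with Benjamini-Hochberg adjustment over 12628 genes, 1 higher and 4 lower. Of all genes tested, 23.6% passed, 11.9% higher and 11.6% lower. The ribosomal RNA level above, lower in most poly(I:C) libraries, moved in the same comparison, and its part in the result was not tested. The median log2 difference was -0.212 over the 10 genes and 0.013 over all genes tested. For Smad7, Skil, Tgfbr2 and Tgfbr3 the overlap of poly(I:C) and PBS libraries within genotypes is given below. The share of all genes that separated as far was not counted, so this overlap is a description. In bulk samples fewer cells of a type and less RNA per cell cannot be told apart.

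Smad7 encodes the inhibitory SMAD, which blocks the active receptor and lies at chromosome 18, 75367529 to 75395935, plus strand, of mm10. Its normalized count with poly(I:C) was 66.4, 73.8 and 69.0 in FancgKO, 71.9 and 52.8 in FancgKO_Mdm4Tg, 60.9 and 82.8 in Mdm4Tg, and 61.8, 73.9 and 61.3 in WT. With PBS it was 79.9, 85.7, 90.6 and 75.1 in FancgKO, 92.8, 119.0 and 71.4 in FancgKO_Mdm4Tg, 115.1, 153.2 and 115.1 in Mdm4Tg, and 108.7, 101.8, 122.1 and 83.3 in WT. Within every genotype all poly(I:C) libraries except FancgKO_Mdm4Tg replicate 7 lay below all PBS libraries, and over all genotypes 6 of 10 did. Smad7 fell by 0.57 ± 0.10 on the log2 scale (SE), to 0.672 of the PBS level, with a limma adjusted p of 0.000951.

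Skil encodes SnoN, a co-repressor that binds SMAD complexes and is degraded when the pathway is active. It lies at chromosome 3, 31095058 to 31122577, plus strand. Skil had normalized counts with poly(I:C) of 93.9, 104.2 and 99.8 in FancgKO, 130.6 and 109.9 in FancgKO_Mdm4Tg, 130.9 and 126.3 in Mdm4Tg, and 117.9, 122.7 and 109.8 in WT. With PBS they were 125.3, 163.9, 137.3 and 143.7 in FancgKO, 140.5, 182.8 and 178.5 in FancgKO_Mdm4Tg, 126.3, 237.7 and 147.2 in Mdm4Tg, and 125.9, 150.4, 180.6 and 159.6 in WT. The groups did not overlap in FancgKO, FancgKO_Mdm4Tg and WT, and 7 of 10 poly(I:C) libraries lay below all 14 PBS libraries. Skil fell by 0.43 ± 0.10 on the log2 scale, to 0.743 of the PBS level, with a limma adjusted p of 0.00425. Ski, its relative at chromosome 4, 155154075 to 155222592, minus strand, did not pass, at 0.15 ± 0.09 (limma adjusted p = 0.223), so the 2 co-repressor genes were not called alike, a difference that was not itself tested. Ski ran from 122.3 through a median of 148.9 to 194.1 with poly(I:C), and from 108.8 through 133.9 to 157.8 with PBS.

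Of the receptors, Tgfbr2 (chromosome 9, 116084293 to 116175360, minus strand) encodes the type II receptor, which binds the ligand first. Its counts with poly(I:C) were 143.3, 180.2 and 132.4 in FancgKO, 148.6 and 139.2 in FancgKO_Mdm4Tg, 156.8 and 153.4 in Mdm4Tg, and 135.2, 144.9 and 137.4 in WT. With PBS they were 181.7, 152.8, 137.3 and 173.1 in FancgKO, 159.1, 238.9 and 217.6 in FancgKO_Mdm4Tg, 199.6, 180.7 and 210.7 in Mdm4Tg, and 192.6, 195.6, 244.2 and 218.1 in WT. Treated and PBS libraries did not overlap in FancgKO_Mdm4Tg, Mdm4Tg and WT, and overlapped in FancgKO. Tgfbr2 fell by 0.38 ± 0.08 on the log2 scale, to 0.768 of the PBS level, with a limma adjusted p of 0.00327.

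Tgfbr3 encodes betaglycan, a co-receptor without a kinase that presents ligand to the type II receptor, and it moved the other way. It lies at chromosome 5, 107106570 to 107289629, minus strand, over the same-strand models Gm43422, Gm43423 and Gm42900 and the opposite-strand pseudogene Gm8145, whose reads could not be told apart because the strand of counting is not stated. The normalized count of Tgfbr3 with poly(I:C) was 197.8, 236.6 and 190.4 in FancgKO, 238.4 and 197.6 in FancgKO_Mdm4Tg, 296.9 and 212.5 in Mdm4Tg, and 298.5, 221.8 and 169.9 in WT. With PBS it was 109.7, 139.7, 144.6 and 182.9 in FancgKO, 124.6, 164.7 and 144.5 in FancgKO_Mdm4Tg, 91.2, 233.8 and 105.0 in Mdm4Tg, and 103.0, 144.2, 128.8 and 143.7 in WT. Groups overlapped only in Mdm4Tg, where PBS replicate 7 was above poly(I:C) replicate 8. Tgfbr3 rose by 0.72 ± 0.14 on the log2 scale, 1.64-fold, with a limma adjusted p of 0.00158. The type I receptor gene Tgfbr1 (chromosome 4, 47353222 to 47414931, plus strand) did not pass, at -0.12 ± 0.11 (limma adjusted p = 0.459, 95% interval -0.347 to 0.114). Its values ran from 192.1 through a median of 252.0 to 321.7 with poly(I:C), and from 186.7 through 278.5 to 350.9 with PBS.

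The ligand gene Tgfb1 (chromosome 7, 25687002 to 25705077, plus strand) lay just outside the threshold, at 0.40 ± 0.15 on the log2 scale (limma adjusted p = 0.0518). The poly(I:C) libraries held normalized counts of 618.8, 663.2 and 432.4 in FancgKO, 600.2 and 419.3 in FancgKO_Mdm4Tg, 697.1 and 399.7 in Mdm4Tg, and 672.8, 641.8 and 423.0 in WT. The PBS libraries held 418.2, 402.4, 600.4 and 633.8 in FancgKO, 342.1, 502.8 and 278.8 in FancgKO_Mdm4Tg, 316.9, 481.3 and 332.0 in Mdm4Tg, and 337.6, 552.1, 510.0 and 295.9 in WT. In each group every title ending in _d_2 lay below every title ending in _d. Libraries with _d averaged 597.9 (481.3 to 697.1) and those with _d_2 averaged 366.5 (278.8 to 432.4), with no overlap. With the title ending as a covariate Tgfb1 rose with poly(I:C) by 0.29 ± 0.05 on the log2 scale at a limma adjusted p of 0.000254. It was 0.29 within _d and 0.31 within _d_2. Without the covariate Tgfb1 also passed, at limma adjusted p-values of 0.0281 to 0.0456, when any single PBS library with _d, or poly(I:C) replicate 8 of FancgKO, Mdm4Tg or WT, was left out.

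The SMADs that carry the signal showed smaller differences. Smad2 (chromosome 18, 76241580 to 76310963, plus strand), which the receptor phosphorylates, fell by 0.23 ± 0.08 on the log2 scale with a limma adjusted p of 0.0336. Its values ran from 112.1 through a median of 141.7 to 158.0 with poly(I:C), and from 137.2 through 163.2 to 206.8 with PBS. This call was lost in 14 of 40 alternative analyses. Single libraries whose omission ended it were PBS replicate 2 of FancgKO_Mdm4Tg and replicate 8 of Mdm4Tg and WT, and poly(I:C) replicate 6 of FancgKO and WT, 7 and 8 of FancgKO_Mdm4Tg and 7 of Mdm4Tg, at limma adjusted p-values of 0.0516 to 0.0977. The other receptor-activated gene, Smad3 (chromosome 9, 63646767 to 63757994, minus strand), had -0.20 ± 0.09 with a limma adjusted p of 0.118, or 0.0348 without FancgKO_Mdm4Tg poly(I:C) replicate 7. Its values ran from 118.0 through 154.0 to 201.1 with poly(I:C), and from 156.5 through 184.3 to 208.2 with PBS. Smad4 (chromosome 18, 73639009 to 73703780, minus strand, with the opposite-strand pseudogene AC132418.2 inside it) had -0.22 ± 0.09 with a limma adjusted p of 0.0707, or 0.0397 without FancgKO_Mdm4Tg PBS replicate 7 and 0.0374 without WT PBS replicate 6. Its values ran from 204.5 through 276.7 to 303.0 with poly(I:C), and from 231.9 through 317.9 to 370.6 with PBS. All 3 genes thus had lower medians with poly(I:C), in groups that overlapped.

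The title ending changed how many of the 10 genes were called. With it as a covariate 8 genes passed, Tgfb1, Smad3 and Smad4 joining the 5, while 34.8% of all genes passed. The replicate number as a block gave the same 8, against 30.9% of all genes. Array weights gave 7 against 38.5%, edgeR 6 against 28.7% and DESeq2 6 against 29.3%. Reads thinned to the shallowest library gave 4 against 13.9%, without Smad2. With the Xist class as a covariate 5 passed against 20.3% of all genes, with Smad3 in place of Smad2. Within titles ending in _d_2 alone 7 passed against 34% of all genes. Within _d alone 0 of 10 and 0% of all genes passed in limma, although Smad7 stood at -0.75, Skil at -0.57, Tgfbr2 at -0.37 and Tgfbr3 at 0.55. Within _d_2 the same genes stood at -0.49, -0.38, -0.43 and 0.69. Ski was 0.27 within _d and -0.03 within _d_2, and Smad3 -0.10 and -0.42. The ending itself went with 6 of the 10 genes, where it went with 45.3% of all genes, so this count is no result about these genes. Tgfbr1 averaged 229.4 with _d and 306.2 with _d_2, again with no overlap (186.7 to 262.2 and 269.1 to 350.9). How many of all genes did not overlap between endings was not counted. Tgfbr3, Smad3 and Ski were higher and Smad4 was lower with _d.

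**Figure D2:**
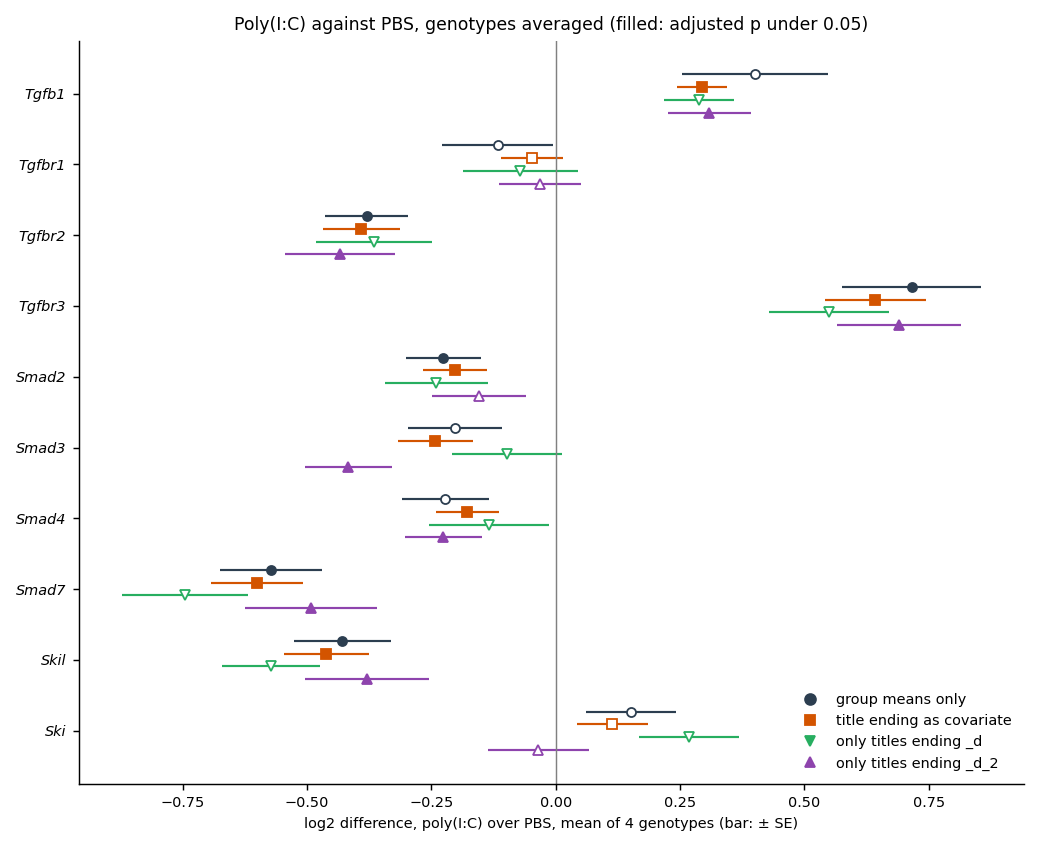
Log2 difference of poly(I:C) over PBS (horizontal axis, bars ± SE), averaged over 4 genotypes, for each gene under 4 fits; filled marks passed an adjusted p of 0.05 in limma. Smad7, Skil, Tgfbr2 and Smad2 are below 0 and Tgfbr3 and Tgfb1 above 0 in all 4 fits.

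Replicate numbers allow 9 pairs of poly(I:C) and PBS libraries that share genotype and number. By the rule given with the processing, pairing of poly(I:C) with PBS was accepted only in WT. The counts over all pairs are therefore a description. Tgfb1 and Tgfbr3 were higher with poly(I:C) in 9 of 9 pairs, by a median log2 difference of 0.28 and 0.45. Smad2, Smad7 and Skil were lower in 9 of 9, by a median of -0.22, -0.47 and -0.54. Of all genes tested, 9.13% moved the same way in all 9 pairs, 4.77% higher and 4.36% lower. Smad4 was lower in 8 of 9 pairs, and Tgfbr1, Tgfbr2 and Smad3 in 7. The 2 pairs in which Tgfbr2 was higher with poly(I:C) were both from FancgKO. Ski was higher in 5 pairs and lower in 4.

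**Figure D3:**
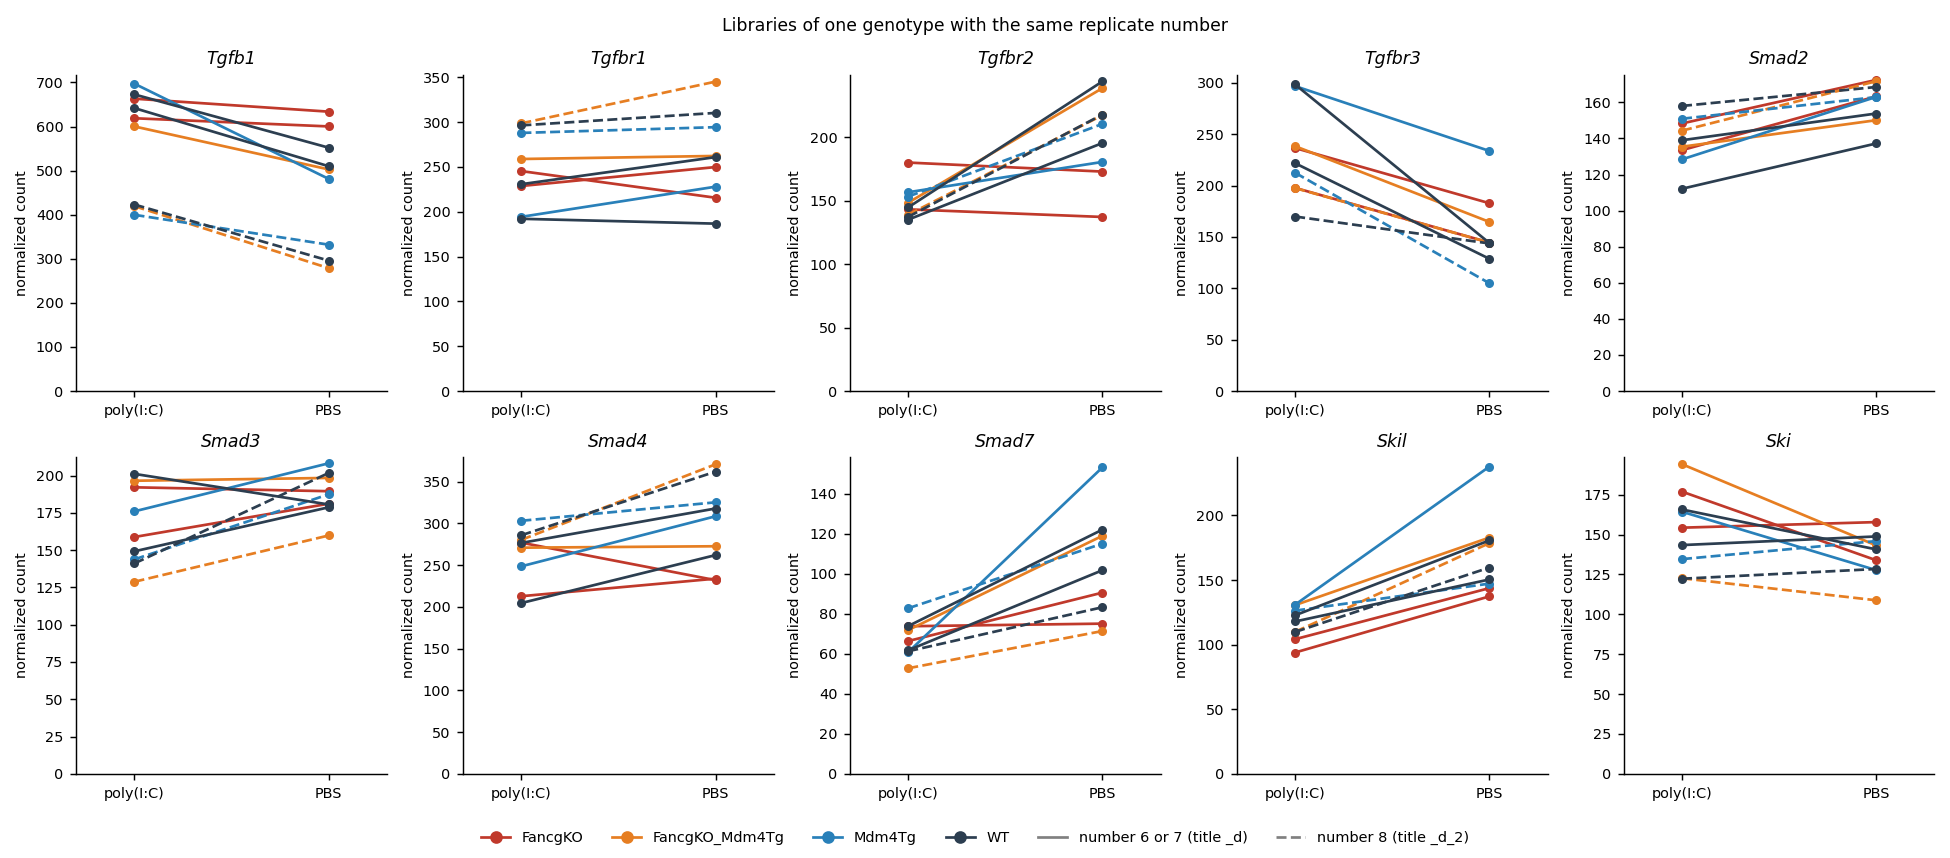
Normalized count (vertical axis, from 0) of each gene with poly(I:C) (left) and PBS (right); lines join libraries of the same genotype and replicate number, coloured by genotype, dashed for number 8. All 9 lines of Smad2, Smad7 and Skil go up towards PBS and all 9 of Tgfb1 and Tgfbr3 go down.

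Within single genotypes the groups hold 2 to 4 libraries and fewer genes passed. In WT, 0 of 10 passed in limma against 0.0158% of all genes, with 0 in edgeR (0.0554% of all genes) and 1, Tgfbr2, in DESeq2 (1.89%). At an unadjusted p under 0.05 in limma there were 5 of 10, against 1881 of all 12628 genes. WT libraries of the same number, and so of the same title ending, deviated together. With the replicate number as a block 5 of 10 passed in limma against 6.88% of all genes. In that fit Tgfbr2 fell by 0.62 ± 0.13 on the log2 scale (adjusted p = 0.00608), Smad7 fell by 0.65 ± 0.17 (adjusted p = 0.0227) and Skil fell by 0.47 ± 0.12 (adjusted p = 0.024). Tgfbr3 rose by 0.67 ± 0.17 (adjusted p = 0.0224) and Tgfb1 by 0.38 ± 0.09 (adjusted p = 0.0129). With the Xist class as a covariate in place of the block, 0 of 10 passed in WT against 0% of all genes. In WT with poly(I:C) the high libraries ended in _d and the low one in _d_2, while PBS libraries were low with either ending. This fit therefore cannot tell the Xist class from the title ending. Tgfb1 then stood at 0.07 ± 0.26 on the log2 scale (limma adjusted p = 0.925), Tgfbr2 at -0.63 ± 0.17 and Smad7 at -0.68 ± 0.22 (limma adjusted p = 0.235 and 0.272). With the title ending in place of the block 4 passed against 2.77%: Tgfb1, Tgfbr2, Tgfbr3 and Smad7. Tgfb1 in that fit stood at 0.36 ± 0.09 (limma adjusted p = 0.0331). In Mdm4Tg, FancgKO_Mdm4Tg and FancgKO, 0 of 10 passed in limma, against 0% of all genes in each. At an unadjusted p under 0.05 in limma there were 2, 3 and 2 genes, against 1605, 1082 and 914 of all 12628 genes. In these genotypes edgeR and DESeq2 called 0 of the 10. In Mdm4Tg, Smad7 stood at -0.83 ± 0.22 and Tgfbr3 at 0.94 ± 0.30, and with the block Smad7, Tgfbr3 and Tgfb1 passed against 4.85% of all genes. These groups share only 2 replicate numbers, too few to accept pairing here, and with the title ending as a covariate 0 passed against 0.0792%. In FancgKO_Mdm4Tg the 3 genes were Tgfbr2 at -0.49 ± 0.18, Smad7 at -0.58 ± 0.22 and Skil at -0.47 ± 0.21. Tgfbr3, at 0.59 ± 0.30, was not among them. In FancgKO the 2 genes were Skil at -0.51 ± 0.18 and Tgfbr3 at 0.54 ± 0.25, while Smad7, at -0.24 ± 0.19, was not among them.

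Whether the response differed between genotypes was tested directly. In limma 0 of 10 genes passed for FancgKO minus WT, FancgKO_Mdm4Tg minus WT or Mdm4Tg minus WT, against 0% of all genes in each, and edgeR and DESeq2 called 0 as well. The only unadjusted p under 0.05 was that of Tgfbr2 in FancgKO minus WT, at 0.51 ± 0.21 on the log2 scale (limma adjusted p = 1). Its response was -0.09 ± 0.15 in FancgKO and -0.60 ± 0.15 in WT. Over all genes 128 of 12628 had an unadjusted p under 0.05 in limma for FancgKO minus WT. A test of any difference in response among the 4 genotypes called 0 of 12628 genes in limma, with 47 at an unadjusted p under 0.05.

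The study also asked what loss of Fancg and the Mdm4 transgene do. With PBS, 0 of 10 genes passed for FancgKO against WT in limma (0% of all genes), and 0 in edgeR and DESeq2. At an unadjusted p under 0.05 in limma there was 1 of the 10, against 497 of all 12628 genes. The 1 of the 10 was Tgfbr2. Its normalized count was 181.7, 152.8, 137.3 and 173.1 in FancgKO and 192.6, 195.6, 244.2 and 218.1 in WT, which did not overlap. It stood at -0.40 ± 0.14 on the log2 scale (limma adjusted p = 0.999). Libraries did not overlap in 1.08% of all genes in this direction, and in none of the other 9 genes. FancgKO and WT libraries of the same number, and so of the same title ending, deviated together. With the replicate number as a block 0 of 10 passed in limma against 0.0317% of all genes. In that fit 4 of the 10 were at an unadjusted p under 0.05, and the count over all genes is not given. Tgfb1 stood at 0.28 ± 0.09 and was higher in FancgKO in 3 of 3 same-numbered pairs (limma adjusted p = 0.254). Tgfbr2 at -0.36 ± 0.13, Smad4 at -0.26 ± 0.10 and Smad7 at -0.38 ± 0.17 were lower in 3 of 3 (limma adjusted p = 0.319, 0.335 and 0.428). Smad2 and Tgfbr3 were also higher, and Skil lower, in 3 of 3 pairs, without an unadjusted p under 0.05. The share of all genes with such agreement was not counted. The Tgfbr2 counts in FancgKO_Mdm4Tg were 159.1, 238.9 and 217.6, and FancgKO_Mdm4Tg against FancgKO stood at 0.33 (limma adjusted p = 0.931). These comparisons share the FancgKO libraries, and neither passed.

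In the other genotype comparisons 0 of 10 genes passed in limma, edgeR or DESeq2. With PBS, 0.00792% of all genes passed for FancgKO_Mdm4Tg against FancgKO, FancgKO_Mdm4Tg against WT and Mdm4Tg against WT each, and 0% for FancgKO_Mdm4Tg against Mdm4Tg. With poly(I:C) it was 0% for FancgKO against WT and 0.00792% for FancgKO_Mdm4Tg against FancgKO. Averaged over transgene and treatment, loss of Fancg called 0 of 10 against 0.0158% of all genes. The smallest unadjusted p was that of Smad7, at -0.22 on the log2 scale (limma adjusted p = 1), and the 95% intervals of all 10 genes lay within -0.432 and 0.404. The transgene, averaged over Fancg and treatment, called 0 of 10 against 0.00792% of all genes, with intervals within -0.526 and 0.386.

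**Figure D4:**
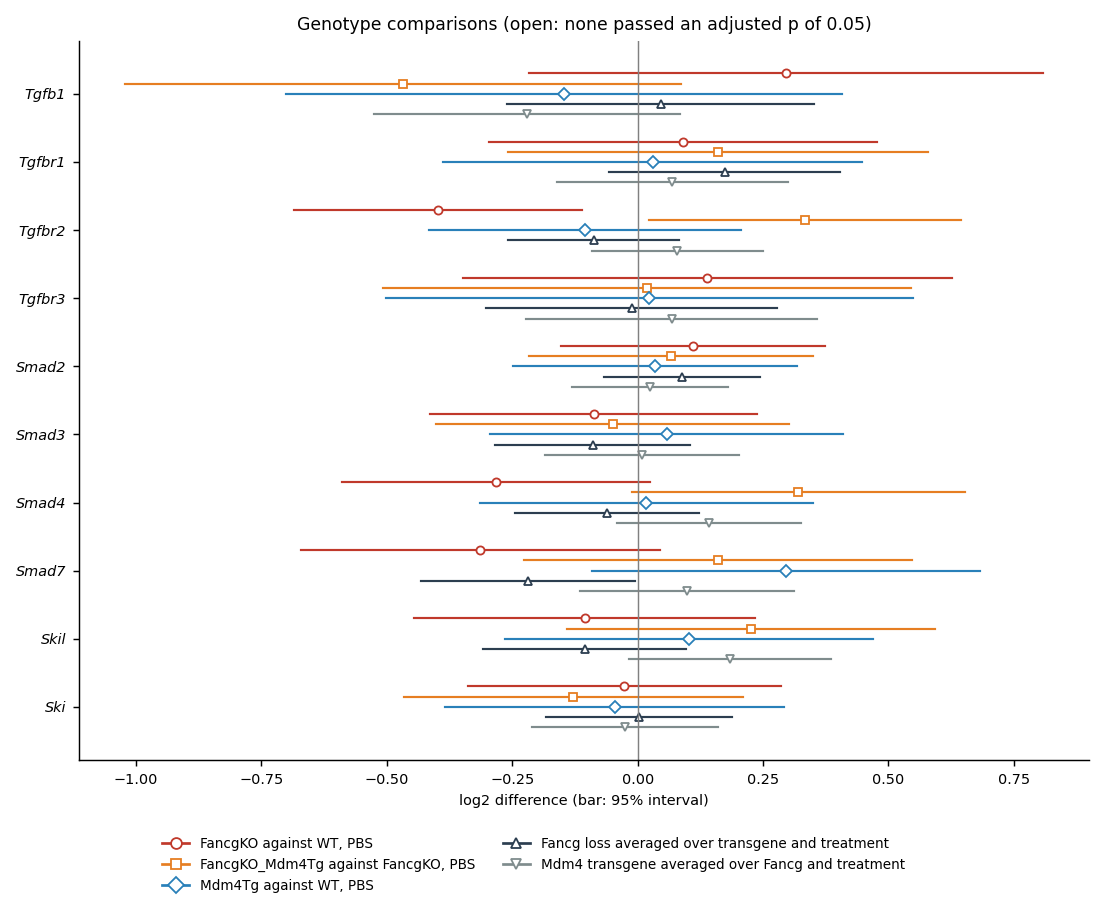
Log2 difference (horizontal axis, bars 95% intervals) of each gene in 5 genotype comparisons; open marks did not pass an adjusted p of 0.05 in limma. Tgfbr2 in FancgKO against WT with PBS, at -0.40, has an interval below 0 before adjustment.

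The wider pathway was described by 5 lists, of which 50 genes were tested. In the averaged poly(I:C) comparison 2 of the 50 were higher and 11 lower at an adjusted p under 0.05 in limma, with a median log2 difference of -0.061. That is 26% of the list genes, close to the 23.6% of all genes, so the count is no result about the pathway. Of 11 tested target genes 3 fell and 0 rose, 27.3% against 23.6% of all genes, with a median of 0.08 on the log2 scale. Klf10, an early TGF-beta response gene, fell by 0.61 (limma adjusted p = 0.000881). Tsc22d1, first known as a TGF-beta stimulated clone, fell by 0.57 (limma adjusted p = 0.00195) and the transglutaminase gene Tgm2 fell by 0.90 (limma adjusted p = 0.0289). Of 10 inhibitors 1 fell and 0 rose: Ldlrad4, which keeps SMAD2 and SMAD3 from the receptor, fell by 0.84 (limma adjusted p = 0.000689), at 14.2 to 38.2 with poly(I:C) and 29.2 to 61.5 with PBS. Tgif1, a nuclear co-repressor, was not past the threshold, at -0.22 (limma adjusted p = 0.0543).

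Among 6 genes of ligands and their activation, the latent TGF-beta binding protein gene Ltbp1 rose by 1.49 from low counts (limma adjusted p = 0.00848), and its relative Ltbp3 fell by 0.80 (limma adjusted p = 0.0122). Ltbp1 had medians of 8.5 with poly(I:C) and 2.3 with PBS. Of 16 receptor and SMAD partners 1 rose and 3 fell, again near the 23.6% of all genes. Strap, which binds the receptors and SMAD7, rose by 0.33, and Crebbp, a SMAD co-activator, fell by 0.26. Rnf111, a ubiquitin ligase that removes SMAD7 and SnoN, fell by 0.27, and the adaptor gene Sptbn1 fell by 0.17. In the related BMP and activin arm 3 of 7 fell and 0 rose, 42.9% of a short list against 23.6% of all genes. These were the type II receptor genes Acvr2b at -0.88, Acvr2a at -0.70 and Bmpr2 at -0.40. In every other comparison 0 genes of the 5 lists passed in limma.

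**Figure D5:**
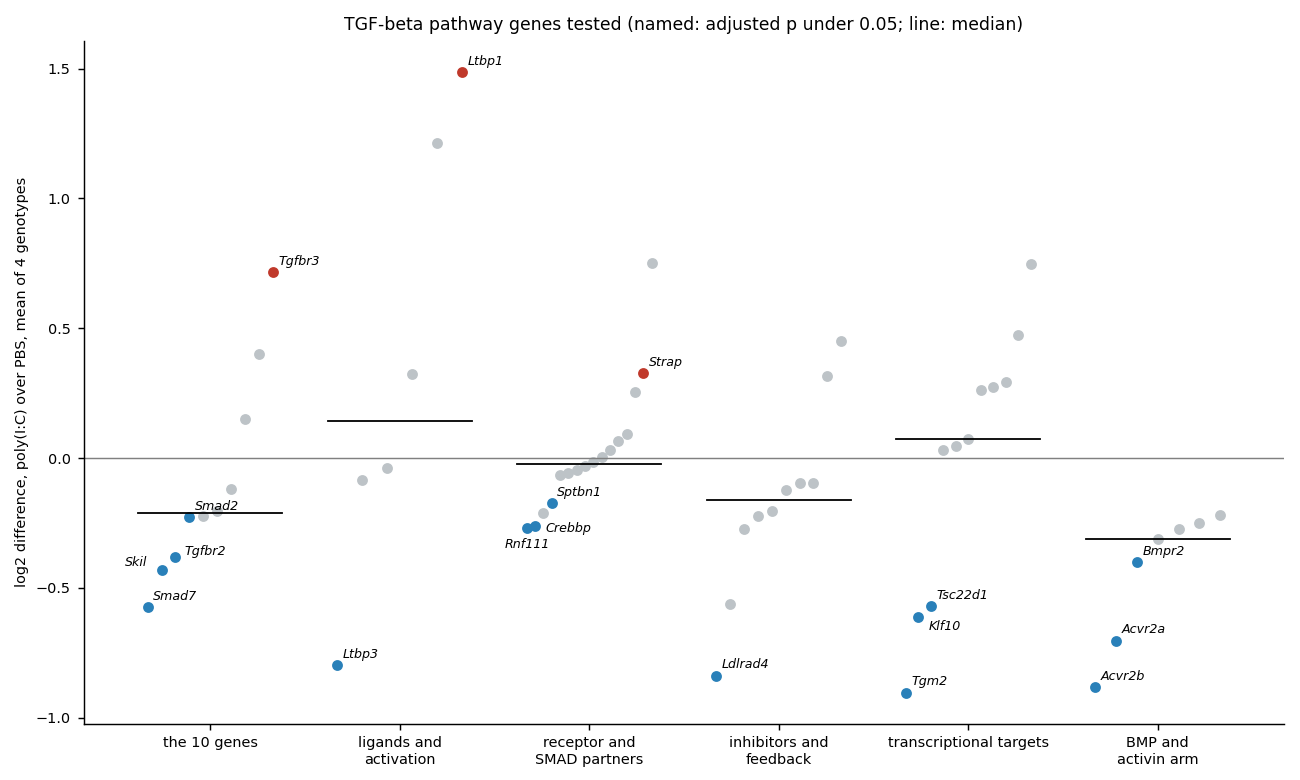
Log2 difference of poly(I:C) over PBS (vertical axis), averaged over 4 genotypes, for the 10 genes and the tested genes of 5 pathway lists; red passed higher and blue passed lower at an adjusted p of 0.05 in limma, grey did not pass, and lines are list medians. Blue points outnumber red in each group except ligands and activation, where there is 1 of each.

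Markers of several cell types were examined in the same comparison, in which 11.9% of all genes passed higher and 11.6% lower. Their part in the results for the 10 genes was not tested. Of 12 granulocyte and monocyte progenitor markers 11 rose and 1 fell, and their summed level was 6267 to 24085 with poly(I:C) and 1744 to 14676 with PBS. Of 9 tested erythroid markers 8 rose, with sums of 692.5 to 2277 and 589.2 to 1172. Stem cell markers fell in 7 of 11, with sums of 931.9 to 2197 with poly(I:C) and 1357 to 3447 with PBS. Lymphoid markers fell in 4 of 9 (825.5 to 2403 and 1491 to 5541), and mast cell and basophil markers rose in 4 of 8 (419.0 to 833.5 and 142.8 to 581.3). Of the megakaryocyte and platelet markers 1 rose and 1 fell of 9 (370.6 to 1078 and 325.8 to 1059), and of the stroma and endothelium markers 1 of 3 fell (301.9 to 516.1 and 320.9 to 610.9). No listed marker found in the table was at 0 in all libraries. Sca-1, used in the sort, is known to rise on cells under interferon, and the makeup of the sorted cells was not measured.

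The genes most like each called gene were found by Pearson r of log2 values over the 24 libraries, among the 7292 genes that averaged 50 or more. The libraries share treatment and title ending, so r is a description. Tgfbr3 was most like Slc14a1, the urea transporter of red cells (r = 0.912), Mfsd2b, a sphingosine phosphate exporter of red cells and platelets (0.897), and Vamp5 (0.879). Smad7 was most like Stat4, a cytokine-signalling factor (0.851), the Notch co-activator gene Maml2 (0.835) and Notch1 (0.825). Tgfbr2 was most like the imprinted transcript Peg13 (0.882), the RNA-binding gene Zfp36l2 (0.867) and Mob3a (0.865). Skil was most like the phosphodiesterase gene Pde4b (0.844), the helicase gene Ddx5 (0.823) and the kinase gene Clk1 (0.794). Smad2 had lower values, with Skap2 (0.796), the calcium pump gene Atp2b1 (0.787) and Irgm2 (0.782). Irgm2, known as interferon-induced, had an averaged log2 difference of -0.55 with poly(I:C) here.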

How the data were processed

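The values are a signal the authors deposited, with 1 number for each gene in each library, which they call normalized counts. STAR and mm10 are listed per the submitters' processing notes. The counter, its strand setting, the use of molecular identifiers and the tool for normalization are not given in the sources used here. Division by the smallest step of a column turned 100% of its values into whole reads (relative tolerance 1e-06). Lengths and coordinates are from GENCODE (GRCm38).

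Genes at 10 or more in at least 2 libraries (12628, all 10 members included) were fitted as log2(value + 1) with 8 group means and a trend in limma 3.58.1 (R 4.3.3), at an adjusted p of 0.05. The recovered reads were tested with edgeR 4.0.16 and DESeq2 1.42.0. The fits were tested on simulated data. Tables and plots used python 3.11.15, numpy 2.4.6, pandas 2.3.3 and matplotlib 3.10.9. The members and lists were chosen with earlier results of these data known. All 10 members are named; from each pathway list the genes past the threshold (up to 5, or the 2 smallest p-values), and for each called member the 3 most alike genes, were named by rule. List genes not matched by symbol are not analysed here.

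Same-numbered libraries of different groups correlated at a median of 0.343 (61 pairs, 0.0528 to 0.647) after group means were removed, against -0.163 for 189 other pairs. Same-numbered libraries also share the title ending, while the other pairs include unlike endings. These correlations therefore cannot tell pairing from the title ending. Pairing was accepted where groups shared 3 or more numbers and each correlation exceeded 0.1. This held for poly(I:C) in WT (0.231 to 0.448) and for FancgKO against WT given poly(I:C) (0.392 to 0.617). Among PBS groups it held for FancgKO against WT (0.218 to 0.528), FancgKO_Mdm4Tg against Mdm4Tg (0.172 to 0.416) or WT (0.248 to 0.389), and the transgene alone against WT (0.293 to 0.378).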

Additional observations from a re-analysis of the deposited data

How the results depend on the processing

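The 5 of 10 genes past the threshold in the averaged poly(I:C) comparison became 8 with the replicate number as a block, 8 with the title ending as a covariate and 0 within titles ending in _d, against 7 within _d_2 with as many libraries, and the cause was not tested. Leaving out 1 library gave 4 to 7. Smad7, Skil, Tgfbr2 and Tgfbr3 passed in 39 of 40 alternatives, all but titles ending in _d. Their adjusted p-values in limma, edgeR or DESeq2 reached 0.296, 0.296, 0.417 and 0.341 there. Smad2 passed in 26 of 40. Tgfb1, Smad4 and Smad3 gained a call in 15, 7 and 5 of 40, and edgeR and DESeq2 each called Tgfb1 besides the 5. Ski turned to -0.03 within titles ending in _d_2, without a call either way, and the cause was not tested. In WT, 0 became 5 with the replicate block, 4 with the title ending, 4 with array weights, 1 with DESeq2 and 0 to 1 when 1 library was left out (Tgfbr2, without WT_PBS replicate 6), and stayed at 0 with edgeR and with the Xist class as a covariate, which moved WT Tgfb1 to 0.07 against 0.47. With that covariate the averaged comparison kept 5, with Smad3 in place of Smad2. Within the groups that held both Xist classes, the class cannot be told apart from the title ending. In Mdm4Tg, 0 became 3 with the block, 2 with array weights and 1, Tgfbr3, when Mdm4Tg_PBS replicate 7 was left out. Within titles ending in _d_2, with 1 Mdm4Tg poly(I:C) library, Tgfbr3 stood at 1.11 on the log2 scale. For array weights and single omissions in WT and Mdm4Tg the share of all genes is not given. Those counts are therefore no result about these genes. Counts of the 10 genes stayed at 0 in all genotype comparisons and tests of a difference in response under every alternative run, the block included. Over all genes the averaged comparison called 2974, against 4860 with array weights, 1751 after thinning reads to the shallowest library, 0 within _d, and 1554 without FancgKO_Mdm4Tg_PolyIC replicate 8, the fewest when 1 library was left out. Where 1 library was left in a group it was assumed to vary like the others. Within _d_2 that was every poly(I:C) group, and within _d the FancgKO_Mdm4Tg and Mdm4Tg groups. All _d_2 libraries were low in Xist, and 6 of the 12 _d libraries were high. The splits by title ending thus differ in more than the ending. Splits by title ending and thinning were chosen after seeing the data. The fewest reads behind a value, 23 for Smad7, and groups of 2 libraries limit the single-genotype results.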
